A study of Mus musculus with 38 samples.

Results

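In whole bone marrow of mice, 61 of 47729 listed genes were at opposite ends of the scale in the libraries with and without G-CSF (granulocyte colony-stimulating factor). Levels were read in TPM, a unit that divides reads by transcript length and by the library total. A gene was taken as on when every one of the 5 libraries of mice given G-CSF, alone or with zoledronic acid (ZA), held 1 TPM or more of it and the 4 libraries of mice given ZA or nothing held 0.1 TPM or less. It was taken as off when the limits held the other way round. The rule found 50 on genes (0.105% of the genes listed) and 11 off genes (0.023%). Since these marrow levels chose the genes, the marrow values of the 61 genes are given as a description and carry no test.

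The marrow groups were G-CSF (replicates 1, 2 and 3), combined ZA and G-CSF (replicates 1 and 3), ZA (replicates 2 and 3) and untreated (replicates 1 and 2). All mice were labelled female C57BL/6, 6 to 7 weeks old. ZA was injected once at 100 µg per kg, and recombinant human G-CSF at 50 µg per kg on 3 days beginning 2 days after ZA. A separate table holds precursors, cells sorted from marrow as lacking lineage markers and carrying CD115, the receptor encoded by Csf1r; 8 of these libraries came from sequencing run 1, with 6 from mice given G-CSF (3 G-CSF and 3 combined) and 2 from mice not given it (1 ZA and 1 untreated). Replicates are numbered in the labels but not said to be separate animals, so the spread between them may be partly technical.

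In marrow, G-CSF stimulates the making and release of neutrophils, and ZA is a bisphosphonate taken up by osteoclasts. Most of the on genes are pseudogenes. A processed pseudogene is a copy of a messenger RNA that was reverse transcribed and inserted elsewhere in the genome, so it lacks introns and can stay nearly identical to the coding gene it came from, called the parent here. A read from a stretch that both share can be assigned to either one, and a program that shares reads among transcripts then relies on the few bases at which they differ. An unprocessed pseudogene comes from a duplicated gene and keeps its gene structure.

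Total estimated counts ran from 6.236 to 16.152 M (M for mega) in the 9 marrow libraries and from 21.049 to 33.19 M in the 8 run 1 precursor libraries. The marrow libraries carried the markers of marrow: 5 neutrophil genes summed to 26560 to 31030 TPM in the libraries with G-CSF and 11530 to 27730 TPM in those without, and 4 erythroid genes to 104600 to 154600 and 149500 to 233800 TPM. In run 1 precursors the neutrophil genes summed to 218.6 to 849.8 TPM and the erythroid genes to 200.6 to 6052 TPM, while Csf1r stood at 43.3 to 77.9 TPM, against 4.47 to 13.4 TPM in marrow. In run 2, 9 libraries went against their tissue label by the neutrophil and erythroid sums, with Csf1r not used. There, 7 libraries labelled precursor carried marrow markers (G-CSF 1 and 2, combined 3, ZA 5 and 7, untreated 2 and 7), and 2 labelled marrow (G-CSF 2 and untreated 2) lacked them. Csf1r in these 7 libraries ran from 7.87 to 61.3 TPM. It was highest in G-CSF 1, within the range of run 1 precursors, and was 31.4 TPM in combined 3. The precursor comparison below therefore rests on run 1, and run 2 is given beside it. Replicate 2 of G-CSF, ZA and untreated marrow appears in both tables, with 99.77% to 99.8% of genes within 1% of each other, and was counted once.

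The sequences show how close a member and its parent can be. Each pair below is a stretch inside the parent's coding sequence, taken from the GENCODE vM21 transcripts and read 5′ to 3′, with the bases that differ in capitals. The 3 pairs were chosen because their members are the most abundant on pseudogene, the most abundant on gene annotated as coding that has a parent, and the most abundant off pseudogene.
Gm13394: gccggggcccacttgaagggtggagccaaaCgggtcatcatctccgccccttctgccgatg
Gapdh: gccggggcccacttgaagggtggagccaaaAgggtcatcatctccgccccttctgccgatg
Gm10184: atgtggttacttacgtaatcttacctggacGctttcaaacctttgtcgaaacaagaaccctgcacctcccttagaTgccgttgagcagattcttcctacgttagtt
Kpna2: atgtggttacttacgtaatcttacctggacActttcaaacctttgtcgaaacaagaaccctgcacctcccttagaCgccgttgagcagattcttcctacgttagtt
Gm15526: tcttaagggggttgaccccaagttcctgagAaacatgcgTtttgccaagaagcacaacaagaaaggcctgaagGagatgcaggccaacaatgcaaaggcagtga
Rpl29: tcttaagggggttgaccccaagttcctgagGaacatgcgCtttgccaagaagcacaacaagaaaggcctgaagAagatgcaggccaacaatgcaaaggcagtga

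Counting from 1 at the 5′ end of each stretch and giving the parent's base first, Gm13394 differs from Gapdh by A31C, the only mismatch in its 1000 nucleotides. Gm10184 differs from Kpna2 by A31G and C76T, the only mismatches in 1968 aligned nucleotides. Gm15526 differs from Rpl29 by G31A, C40T and A74G in 204 nucleotides. Within a printed stretch, a read that covers none of these positions is the same for both genes of the pair; outside the aligned part, a parent's transcript has sequence of its own.

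By annotated kind, pseudogenes made up 30 of the 50 on genes (60.0%) and 2 of the 11 off genes (18.2%), against 5.8% of the 12315 genes detected in marrow (at least 1 TPM in at least 4 libraries). Protein-coding genes made up 7 on genes (14.0%) and 1 off gene (9.1%), against 82.9% of detected genes. Small or structural RNAs gave 9 on and 2 off genes, against 4.8% of detected genes. Immunoglobulin and T cell receptor segments gave 2 on genes, both V pseudogenes, and 4 of the 11 off genes (36.4%), against 1.7%. Long non-coding or unconfirmed transcripts gave 2 on and 2 off genes. Of the 30 on pseudogenes, 24 are processed, 5 unprocessed and 1 polymorphic (functional in some strains), and both off pseudogenes are processed.

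**Figure D1:**
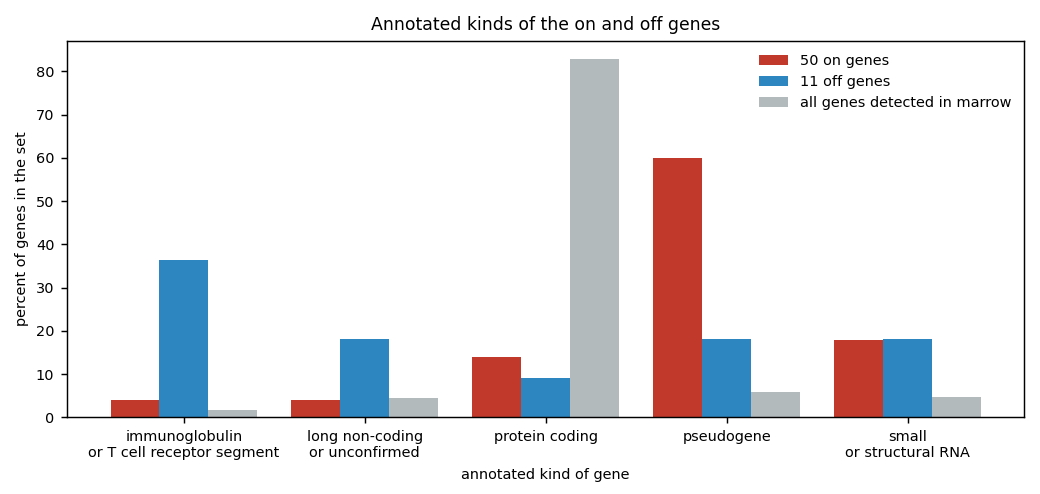
Percent of the 50 on genes (red), the 11 off genes (blue) and all 12315 genes detected in marrow (grey) in each annotated kind. Pseudogenes are 60.0% of the on genes and 5.8% of detected genes, and protein-coding genes are 14.0% and 82.9%.

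The members lay on 17 chromosomes. Chromosome 17 held 6 on genes (9.8% of the members, against 5.0% of detected genes), chromosome 14 held 5 on genes (8.2% against 3.2%) and chromosome 12 held 2 on and 3 off genes (8.2% against 3.9%). On mm10, chromosome 17 held H2-Ea-ps, H2-Q2, Gm8815 and Gm10074 between 34341959 and 36226271, inside the major histocompatibility complex. All 5 members on chromosome 12 lay in the immunoglobulin heavy chain locus, between 113285325 and 114812745: Ighg2c, Ighj1 and Ighv5-16 were off, and the V pseudogenes Ighv4-2 and Ighv1-29 were on. On chromosome 14, Ear-ps3 and Ear-ps5 lay 85.0 kb apart among the eosinophil-associated ribonuclease genes. An on and an off member also lay 609.7 kb apart on chromosome 7 (Gm5900 and Gm27995).

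Of the 61 members, 35 had a parent, a coding transcript matching at least 90% of bases over at least 50% of the member's transcript (30 on, 5 off), and these were 29 genes. Identity ran from 90.1% to 100% with a median of 97.8%, and 24 of the 26 processed pseudogenes had a parent. The match was in the antisense direction for Gm23823, for the unconfirmed transcripts Gm37665 and Gm43835, and for 4 entries annotated as miRNAs. Members with and without a parent also overlap other genes in the annotation: 25 on and 4 off genes share bases with another gene on either strand, and the labels do not say whether the library kit kept strand.

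Gm13394 (chromosome 2, 28933610 to 28934609), a processed copy of the glycolytic enzyme gene Gapdh, had the highest median of the on side. Its levels were 381, 389 and 446 TPM in the G-CSF libraries and 478 and 423 TPM in the combined libraries, against 0 in all 4 ZA and untreated libraries. Gapdh itself had 520, 464 and 538 TPM in G-CSF, 563 and 629 TPM in combined, 752 and 753 TPM in ZA and 322 and 700 TPM in untreated marrow. The copy thus held 40.2% to 45.9% of the summed TPM of both genes in every library with G-CSF and 0% in every library without. The sums themselves were 853 to 1052 TPM with G-CSF and 322 to 753 TPM without.

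Gm10184 (chromosome 17, 89908462 to 89910449) is annotated as coding and copies Kpna2, which encodes an importin alpha of nuclear import. It had 53.6, 64.9 and 56.9 TPM in G-CSF and 59.1 and 65.2 TPM in combined libraries, against at most 0.00165 TPM in the 4 others. Kpna2 had 12.2, 14.52 and 13.6 TPM in G-CSF, 13.9 and 22.5 TPM in combined, 54.1 and 50.5 TPM in ZA and 34.4 and 71.3 TPM in untreated marrow. For this pair the levels crossed: the copy held 74.3% to 81.7% of the sum with G-CSF, and the parent's ranges did not overlap. The sums of copy and parent did overlap, with means of 75.3 TPM with and 52.6 TPM without G-CSF.

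Gm14292, a processed copy of Wtap, a subunit of the RNA methyltransferase that makes N6-methyladenosine, split the same way. It held 46.8% to 55.5% of the summed TPM with G-CSF and at most 0.102% without. Gm7381, another copy of Wtap, held 12.2% to 41.4% and 0% of its sum with the same parent. At the other end, Gm15989 held 1.8% to 2.09% of its sum with Mkrn1, a ubiquitin ligase gene, so an on gene could be a small or a large part of its pair.

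**Figure D2:**
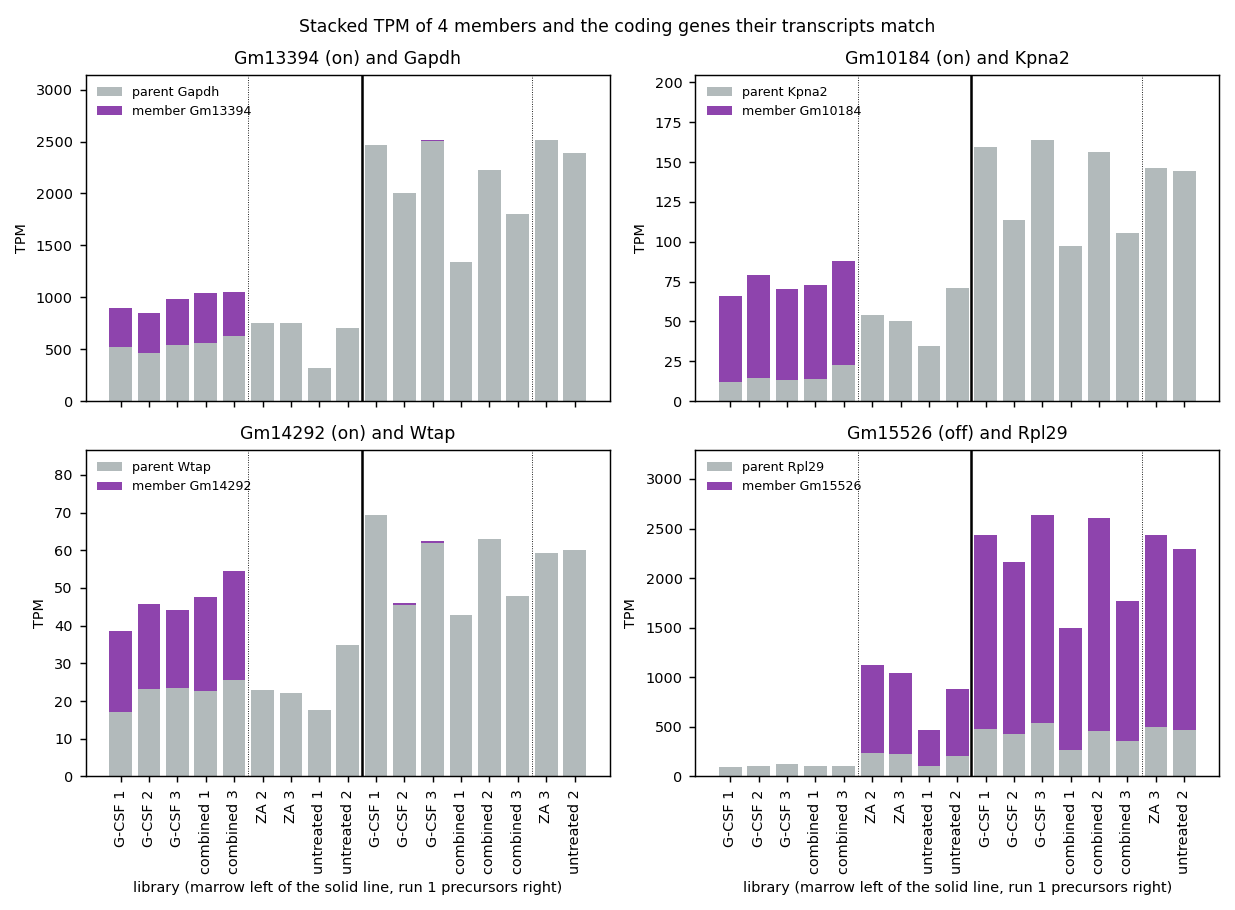
TPM of 4 members (purple) stacked on their parents (grey) in each marrow library (left of the solid line) and run 1 precursor library (right), with dotted lines between libraries with and without G-CSF. Gm13394, Gm10184 and Gm14292 make up a visible part of the bar in the 5 marrow libraries with G-CSF and at most a thin edge elsewhere; Gm15526 appears in marrow without G-CSF and in all 8 precursor libraries.

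Gm6916 (chromosome 7, 128314784 to 128340805), a transcribed processed pseudogene, reached 505, 531 and 229 TPM in G-CSF and 403 and 389 TPM in combined libraries, and 0 in the other 4. Its best match, Tma7, covered 44.4% of its transcript at 97.8% identity and so was not kept as a parent. Gm12222, a processed copy of Dbi, had 33.9, 34.6 and 18.6 TPM in G-CSF and 40.8 and 9.10 TPM in combined libraries, and 0 in the others. Of the 3 unprocessed pseudogenes of the ribonuclease family, Ear-ps3 kept to 2.67 to 5.04 TPM in the libraries with G-CSF. Ear-ps5 had 7.75 and 9.28 TPM in G-CSF 1 and 2 but 42.6 TPM in G-CSF 3 and 41.1 and 39.4 TPM in the combined libraries, and Ear-ps10 was likewise low in G-CSF 1 and 2 (3.55 and 4.08 TPM) and 16.9 to 26.5 TPM in the other 3. Over the 50 on genes, the highest of the 5 libraries was a median of 2.58 times the lowest, and under 2 times for 18 genes.

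Among coding genes on the on side, Fam166a, which encodes a protein of ciliary microtubules, was highest. It had 70.9, 71.2 and 104 TPM in G-CSF and 121 and 151 TPM in combined marrow, and 0 in the other 4 libraries. It overlaps the tubulin gene Tubb4b on the opposite strand, which averaged 213 TPM with and 146 TPM without G-CSF, and without strand their reads cannot be told apart over the shared bases. Fam166a also had 118.7 TPM in the run 2 library of ZA 2 marrow, which carries marrow markers, while the run 1 library under that label had 0. BC117090, a stefin A family gene of cysteine protease inhibitors, had 23.02, 30.8 and 19.3 TPM in G-CSF and 25.4 and 26.9 TPM in combined marrow, and 0 in the others. Its closest relative BC100530 was 95.3% identical and averaged 48.0 TPM with and 2.59 TPM without G-CSF (log2 fold change 3.63 ± 0.39, adjusted p = 0.000403 by edgeR). How reads were split between these 2 genes is not known.

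H2-Q2, a class I histocompatibility gene, had 12.5, 12.8 and 14.99 TPM in G-CSF and 10.6 and 11.5 TPM in combined marrow, and at most 0.0488 TPM in the others. H2-Ea-ps, the gene of the class II E alpha chain that C57BL/6 mice do not express, had 1.33, 1.66 and 3.82 TPM in G-CSF and 3.28 and 5.01 TPM in combined marrow, and 0 in the others. Ifi202b, a DNA-binding interferon-inducible gene known for very low expression in C57BL/6, had 2.51, 3.71 and 2.99 TPM in G-CSF and 4.28 and 11.2 TPM in combined marrow, and 0 in the others. The labels name 1 strain for all 9 libraries; the genetic background was not tested here, and any difference in it between the libraries with and without G-CSF cannot be told apart from G-CSF. For other listed genes known to differ between strains, levels follow, and their bearing on genetic background was not tested. Wdfy1 averaged 5.56 ± 0.90 TPM with and 1.90 ± 0.45 TPM without G-CSF (SD, n = 5 and 4; log2 fold change 0.80, adjusted p = 0.00432 by edgeR). Mx1, an interferon-induced antiviral gene, averaged 0.399 and 0.805 TPM (-1.70, adjusted p = 0.00515). Ly9 had 5.75 ± 0.97 and 4.06 ± 1.06 TPM, yet its edgeR log2 fold change was -0.24 (adjusted p = 0.259), and Mx2 was not called either. Naip1, Klra4 and Klra8 averaged under 0.5 TPM on both sides and did not pass the filter on low counts.

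Ifi44l, an interferon-induced gene, had 2.21, 3.32 and 3.29 TPM in G-CSF and 1.30 and 2.59 TPM in combined marrow, against at most 0.0366 TPM in the others. Ccnb1ip1, a ubiquitin ligase gene of meiotic recombination, had 2.11, 3.34 and 3.42 TPM in G-CSF and 1.26 and 2.16 TPM in combined marrow, and 0 in the others. It overlaps Rpph1, the RNA of ribonuclease P, on the same strand; Rpph1 averaged 2.19 TPM with and 137 TPM without G-CSF. An opposite pair of this kind, picked after its values were seen as Rpph1 was, lay at Gm8719, whose antisense neighbour Gm10069 averaged 0.0553 TPM with and 5.19 TPM without G-CSF.

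Several small RNA members rest on few reads. Gm23823, a snoRNA, had 40.3, 38.0 and 69.4 TPM in G-CSF and 56.2 and 26.7 TPM in combined libraries, and 0 in the others, yet its estimated counts summed to 26.1 over the 5 libraries. The snRNAs Gm23341 (6.86 to 56.5 TPM) and Gm22716 (13.7 to 34.1 TPM) had summed counts of 10.04 each. The lowest of the 5 libraries held under 10 counts for 19 of the 50 on genes, and for 7 of the 11 off genes among their 4 libraries. A floor of 3 counts over the libraries without G-CSF was set beside pooled CPM (counts scaled to the library total) with G-CSF. Pooled CPM was 7310 times this floor for Gm13394, 2270 times for Gm10184 and 582 times for Gm6916. It was only 5.20 times the floor for Gm23823 and 2.00 times for Gm22716. Such floors cover counting error only, and the ratios describe genes that the same contrast chose, with no test.

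Gm23147, Gm24496, Gm25086 and Gm23936, annotated as miRNA genes on chromosomes 3, 9, 9 and 4, have the same transcript sequence, printed here in full with no base in capitals since none differs among the 4 entries.
Gm23147: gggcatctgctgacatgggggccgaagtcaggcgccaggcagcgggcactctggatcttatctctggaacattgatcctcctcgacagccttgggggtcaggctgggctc
Each of the 4 entries had only 5.99 estimated counts summed over the 5 libraries with G-CSF, and a pooled CPM 1.19 times the floor of 3 counts. They had the same values in every library: 25.2, 12.0 and 9.65 TPM in G-CSF and 2.35 and 12.8 TPM in combined marrow, and 0 in the others. These 4 entries are therefore 1 measurement, as are Gm37665 and Gm43835, whose 149 nucleotides are identical; the precursor table lists Gm23147 and Gm43835 alone.

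On the off side, Ighj1 (chromosome 12, 113429781 to 113429833), a joining segment of the heavy chain locus, was highest. It stood at 0 in all 5 libraries with G-CSF, against 556 and 2324 TPM in ZA and 399 and 2309 TPM in untreated marrow. Its transcript is 53 nucleotides long, so its counts, 345 over the 4 libraries, give high TPM. Ighg2c, the constant region gene that C57BL/6 mice carry in place of the Ighg2a of other strains, had at most 0.0914 TPM with G-CSF, against 2.12 and 13.4 TPM in ZA and 1.21 and 14.3 TPM in untreated marrow. In both genes ZA 2 and untreated 1 were the low libraries of their groups. The T cell receptor segment Trbv13-2 had 0 TPM with G-CSF, against 1.53 and 2.24 TPM in ZA and 1.64 and 5.21 TPM in untreated marrow.

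Markers of other cell types moved as follows beside the on and off genes, and their part in the result was not tested. The 4 B cell markers summed to 173 to 312 TPM with and 106 to 184 TPM without G-CSF, and 1 of the 4 was lower by edgeR (Ms4a1). The 4 T cell markers summed to 16.2 to 24.1 and 12.5 to 25.2 TPM, with Cd3d higher and Cd3e, Cd3g and Trbc2 lower. Cd3d averaged 14.46 TPM with and 2.34 TPM without G-CSF, while Cd3e averaged 0.0262 and 1.22 TPM. The 3 platelet markers summed to 1028 to 1541 TPM with and 64.95 to 523.1 TPM without G-CSF, ranges that do not overlap; Ppbp was called higher (log2 fold change 2.37, adjusted p = 0.0348 by edgeR), and Pf4 and Itga2b were not called. The 3 stromal markers summed to 76.85 to 117.8 and 13.89 to 98.88 TPM with none called. All 4 erythroid markers were lower by edgeR, and of the 5 neutrophil markers 1 was higher and 2 lower. In bulk marrow, fewer cells of a type and less RNA per cell cannot be told apart.

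Gm15526 (chromosome 6, 54177480 to 54177683), a short processed copy of the ribosomal protein gene Rpl29, stood at 0 in all 5 libraries with G-CSF. It had 886 and 818 TPM in ZA and 367 and 679 TPM in untreated marrow, which was 76.9% to 78.9% of the sum with Rpl29. Rpl29 had 96.3, 102 and 120 TPM in G-CSF, 104 and 104 TPM in combined, 236 and 227 TPM in ZA and 103 and 204 TPM in untreated marrow; untreated 1 lay within the range of the libraries with G-CSF. The sums averaged 105.4 TPM with and 880 TPM without G-CSF. These sums are not sums of reads: Gm15526 rested on 95.4 to 198 counts in each library without G-CSF, and a read adds more TPM to a short transcript than to a longer one.

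Gm27995, annotated as an snRNA, lies within Trim12c on the same strand and matches it without a mismatch over 100 nucleotides, so its reads cannot be told from those of Trim12c. It had 0 TPM with G-CSF, against 74.7 and 95.1 TPM in ZA and 53.2 and 96.6 TPM in untreated marrow. Gm37665 and Gm43835 had 0 TPM with G-CSF, against 54.0 and 45.0 TPM in ZA and 13.7 and 116 TPM in untreated marrow. Eps8l1, the only coding gene of the off side and a relative of an actin regulator, had 0.0351 TPM in G-CSF 3 and 0 in the other 4 libraries with G-CSF, against 14.3 and 16.5 TPM in ZA and 3.98 and 7.82 TPM in untreated marrow.

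Just outside the limits on the on side were Gbp2b, a guanylate-binding protein gene, whose lowest level with G-CSF was 0.992 TPM, Gm6123 (0.979 TPM) and Gm5898 (0.978 TPM), and just inside were Gm13991 (1.04 TPM), Gm4875 (1.14 TPM) and Gm27007 (1.15 TPM). On the off side, Gvin1, a large interferon-inducible GTPase gene, missed with a lowest level without G-CSF of 0.916 TPM, Gm15915 with 0.762 TPM and Baiap3 with 0.722 TPM, while Ighv5-16 (1.11 TPM), Ighg2c (1.21 TPM) and Gm26035 (1.41 TPM) passed. Leaving out a library could only keep or raise a count, since fewer libraries then had to meet the limits. All 50 on and 11 off genes stayed each time. The off count was 46 genes without G-CSF 3, 18 without combined 3, 18 without untreated 1 and 19 without untreated 2. The on count was 52 to 74 when each library was left out, with 74 genes without ZA 3.

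**Figure D3:**
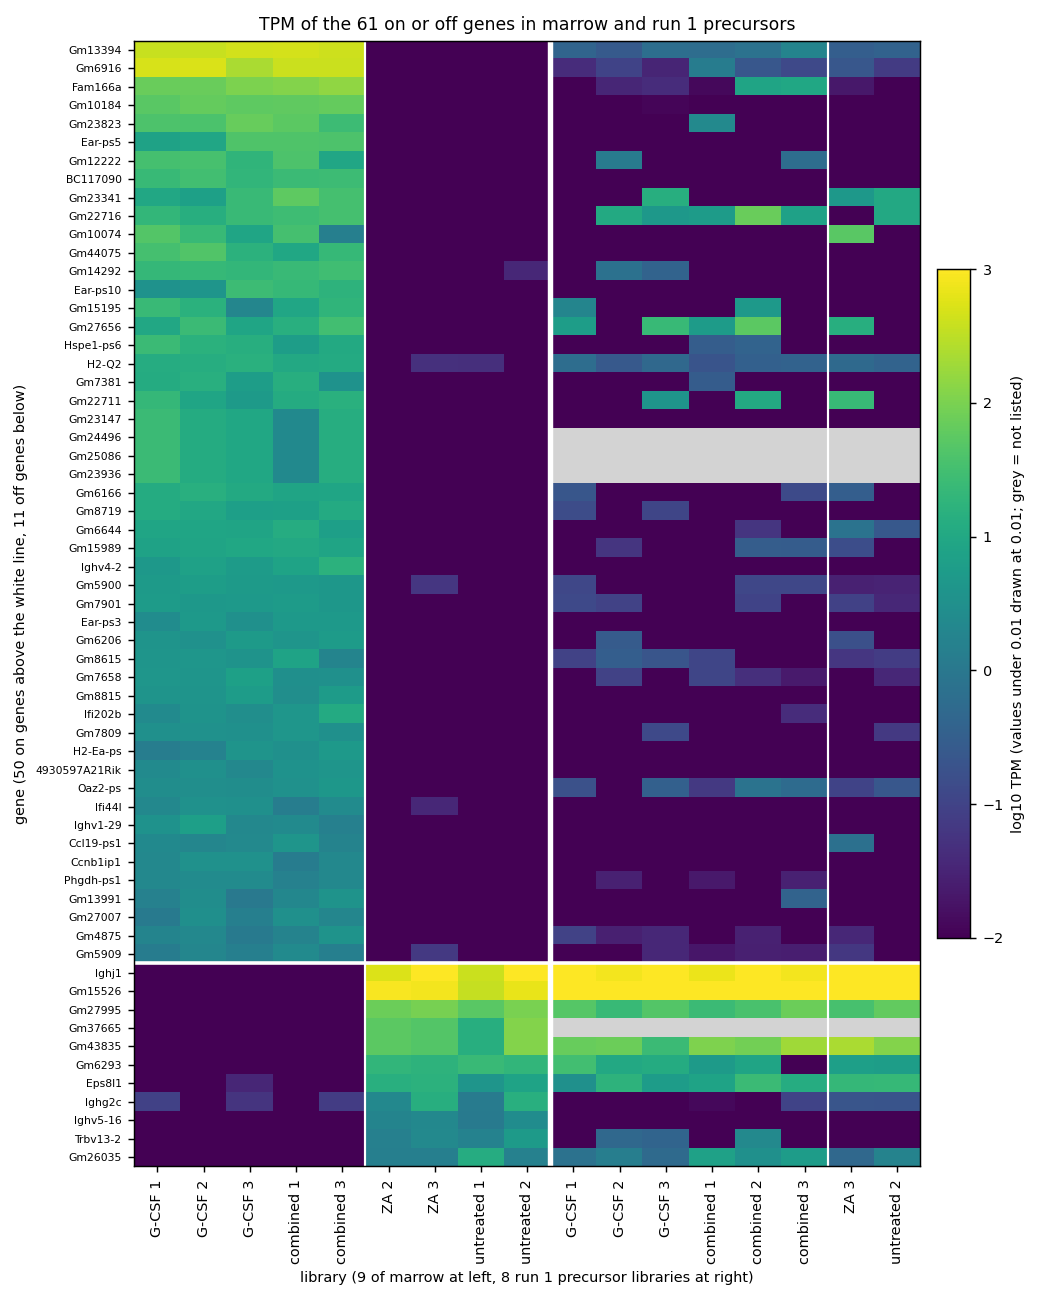
TPM of each member (rows) in the 9 marrow libraries and the 8 run 1 precursor libraries (columns), on a log10 scale with values under 0.01 drawn at 0.01 and grey for entries that the precursor table does not list. The 50 on genes are high in the 5 marrow libraries with G-CSF and mostly dark in all precursor libraries, while the top off genes are high in every precursor library, with or without G-CSF.

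Run 1 precursors gave levels that the rule had not used. The table lists 47 of the on genes. None had 1 TPM or more in all 6 libraries with G-CSF, 36 stayed below 1 TPM in all 8 libraries and 19 stayed at or below 0.1 TPM in all 8. The on genes at 1 TPM or more numbered 2, 2 and 4 in the G-CSF libraries and 4, 5 and 3 in the combined libraries, against 4 in the ZA and 2 in the untreated library. Their summed TPM was 10.04, 14.4 and 47.9 in G-CSF and 16.3, 155 and 21.2 in combined precursors, against 97.5 in ZA and 22.7 in untreated precursors; in marrow with G-CSF the 50 genes summed to 1306 to 1593 TPM. No member met the same on or off rule in run 1 precursors, where 7 genes (0.015%) of 46679 met the on rule and 12 (0.0257%) the off rule.

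Of the 11 on genes that reached 1 TPM in some run 1 library, 4 did so both with and without G-CSF, 4 in a single library with G-CSF, 2 in a pair of libraries with G-CSF (Fam166a and Gm15195) and 1 in the ZA library alone (Gm10074, 51.8 TPM). Gm22716 had 0, 10.9 and 4.59 TPM in G-CSF and 5.54, 73.0 and 7.12 TPM in combined precursors, against 0 in ZA and 10.54 TPM in untreated precursors. Fam166a had 8.43 and 9.56 TPM in combined 2 and 3 and at most 0.0422 TPM in the other 6 libraries, and Gm15195 had 1.90 TPM in G-CSF 1, 5.07 TPM in combined 2 and 0 in the other 6. Gm13394 had 0.407, 0.255 and 0.636 TPM in G-CSF and 0.612, 0.763 and 1.83 TPM in combined precursors, against 0.311 TPM in ZA and 0.366 TPM in untreated precursors. Its share of the sum with Gapdh was at most 0.101% there, while Gapdh itself was higher than in marrow, at 1338 to 2510 TPM with and 2391 to 2516 TPM without G-CSF. H2-Ea-ps was at 0 in all 8 libraries.

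The off genes were split. Of the 10 listed, 5 had 1 TPM or more in all 8 libraries, while Ighv5-16 was at 0 in all 8 and Ighg2c had at most 0.0993 TPM with G-CSF, against 0.209 TPM in ZA and 0.195 TPM in untreated precursors. Gm15526 had 1952, 1740 and 2094 TPM in G-CSF and 1226, 2154 and 1411 TPM in combined precursors, against 1938 TPM in ZA and 1827 TPM in untreated precursors, so the groups overlapped. Its share of the sum with Rpl29 was 79.4% to 82.5% with and 79.7% without G-CSF in these precursors. Ighj1 had 974, 815 and 1066 TPM in G-CSF and 709, 1018 and 802 TPM in combined precursors, against 1094 TPM in ZA and 1075 TPM in untreated precursors. Eps8l1 had 3.22, 16.7 and 5.79 TPM in G-CSF and 8.08, 25.2 and 12.3 TPM in combined precursors, against 21.0 TPM in ZA and 22.1 TPM in untreated precursors. Of the 10 off genes listed, 6 to 8 reached 1 TPM in each library with G-CSF and 6 to 7 in each without.

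Run 1 precursors with G-CSF were set against those without by edgeR's quasi-likelihood test. Only 4 on and 6 off genes passed the filter on low counts and none was called; nor was any of the 17187 genes tested (0%), with 589 at an unadjusted p under 0.05, and DESeq2 called 23 genes, no member among them. The difference for Gm15526 was 0.07 on the log2 scale (95% interval -0.14 to 0.27, adjusted p = 1 by edgeR) and for Ighj1 -0.10 (-0.43 to 0.24). The interval was wide for Gm13394 (1.38, -0.12 to 2.88) and for Eps8l1 (-0.65, -1.89 to 0.59), and for Fam166a (8.52, -0.83 to 17.86) it covered no difference as well as a very large one. A test of 6 against 2 libraries leaves small differences undetected, and an adjusted p over the threshold does not show that the groups were alike.

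**Figure D4:**
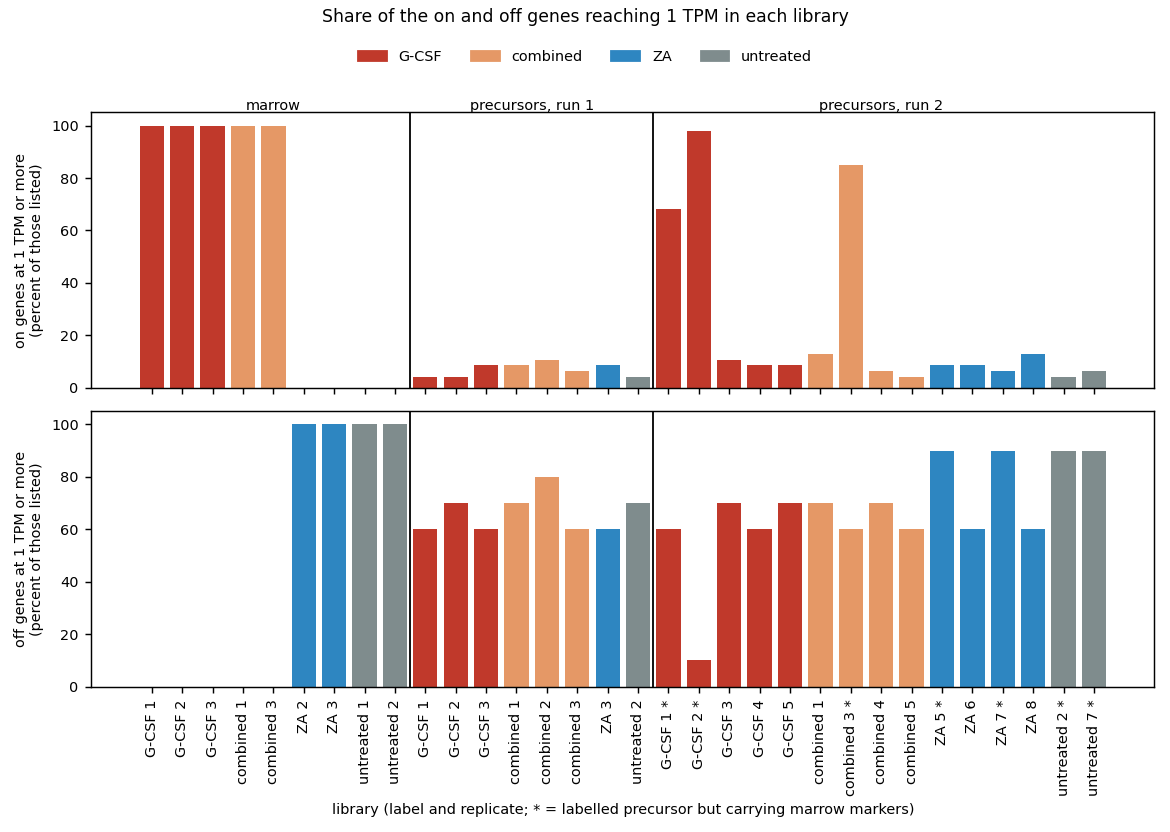
Percent of the listed on genes (top) and off genes (bottom) at 1 TPM or more in each library of marrow, run 1 precursors and run 2 precursors, coloured by treatment; a star marks libraries labelled precursor that carry marrow markers. Among precursor libraries, on genes pass 20% in G-CSF 1, G-CSF 2 and combined 3 of run 2, all of them starred.

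In run 2, the libraries labelled precursor that lacked marrow markers had 2 to 6 of the 47 on genes at 1 TPM or more with G-CSF and 4 to 6 without, and 6 to 7 of the 10 off genes. In the starred libraries labelled without G-CSF (ZA 5 and 7, untreated 2 and 7), 2 to 4 of the 47 on genes reached 1 TPM and 9 of the 10 off genes did. The starred library G-CSF 2 had 46 of 47 on genes and 1 of 10 off genes at 1 TPM or more, and combined 3 and G-CSF 1 had 40 and 32 on genes with 6 off genes each. Fam166a was at 67.6 TPM in ZA 7 and 66.33 TPM in untreated 7, both starred and labelled without G-CSF. ZA 2 labelled marrow in run 2, which carried marrow markers, had 4 on and 9 off genes at 1 TPM or more, with Fam166a most of its 139.5 TPM over the on genes. G-CSF 2 labelled marrow in run 2, which lacked marrow markers, had 3 on and 7 off genes. Fits of run 2 alone and of the 17 final libraries, with and without the starred ones, called 0 members. Some run 2 libraries with a new replicate number lay close to a run 1 library in log2 TPM over 8652 genes. Combined 4 correlated at 0.971 with combined 1 of run 1, and G-CSF 4 at 0.958 with G-CSF 1. Whether such libraries share material was not tested, so these fits may not be independent of run 1.

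Within each side of the marrow rule, a further treatment could be compared, since the rule did not set these groups against each other. It did require the same limit in every library of both groups. Genes that 1 of the groups brought below the limit were thus left out, and the comparison leans toward no difference. Combined marrow was set against G-CSF marrow by edgeR: of the 36 on genes tested none was called, and 1 of 14737 genes was (0.00679%). Their median log2 fold change was -0.19, against -0.01 over all genes, and 25 were lower and 11 higher. Of all 14737 genes, 7557 were lower and 7163 higher. At an unadjusted p under 0.05 by edgeR were 5 of the 36 on genes, beside 1530 of all 14737 genes, so these 5 are not read as a result. Among them, Ifi202b had 7.74 TPM in combined and 3.07 TPM in G-CSF marrow on average (log2 fold change 0.96 ± 0.39, adjusted p = 0.463). H2-Q2 had 11.1 and 13.4 TPM (-0.62 ± 0.27, adjusted p = 0.479). ZA marrow against untreated marrow called none of the 4 off genes tested and 5 of 14737 genes (0.0339% in all, 0.00679% higher and 0.0271% lower). Eps8l1 averaged 15.4 TPM in ZA and 5.90 TPM in untreated marrow (1.02 ± 0.28, adjusted p = 0.407). With 2 combined against 3 G-CSF libraries and 2 ZA against 2 untreated, small differences can go undetected. The lack of calls does not show that the groups were alike.

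The members were chosen by their TPM in the marrow libraries with and without G-CSF, and the parents were then found as sequence matches of these members. The rule did not use the parents' own levels, but a parent and its copy share reads. Reads assigned to a copy are not counted for its parent, so the choice of members can itself move a parent in the same contrast. The p-values of the parents in marrow are therefore not independent of that choice. How much of each difference came from shared reads was not tested. Marrow with G-CSF was set against marrow without: of 29 parents tested, 4 were higher and 14 lower by edgeR, where 14.7% of 14737 genes were called (6.39% higher, 8.27% lower), but on the TPM scale with limma 9 were higher and 2 lower, and of all genes 6281 were higher and 264 lower. By side with edgeR, 4 of 25 parents of on genes were higher and 12 lower, with a median of -0.51. Of 4 parents of off genes, 0 were higher and 2 lower, with a median of -1.08. The median over all the parents was -0.54 with edgeR, against 0.00 over all genes, and the TPM scale moved the median of all genes to 0.62. Kpna2 (-2.51 ± 0.14, adjusted p = 6.92e-06) and Rpl29 (-1.61 ± 0.10, adjusted p = 1.22e-05) were lower under every setting. Gapdh (-0.92 ± 0.11, adjusted p = 0.000545) and Trim12c (-1.63 ± 0.14, adjusted p = 0.000101) did not pass on the TPM scale, and Noct (-0.20 ± 0.14, adjusted p = 0.405) turned to 0.56 there without passing. In run 1 precursors none of 26 parents tested was called, and their median was 0.01.

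**Figure D5:**
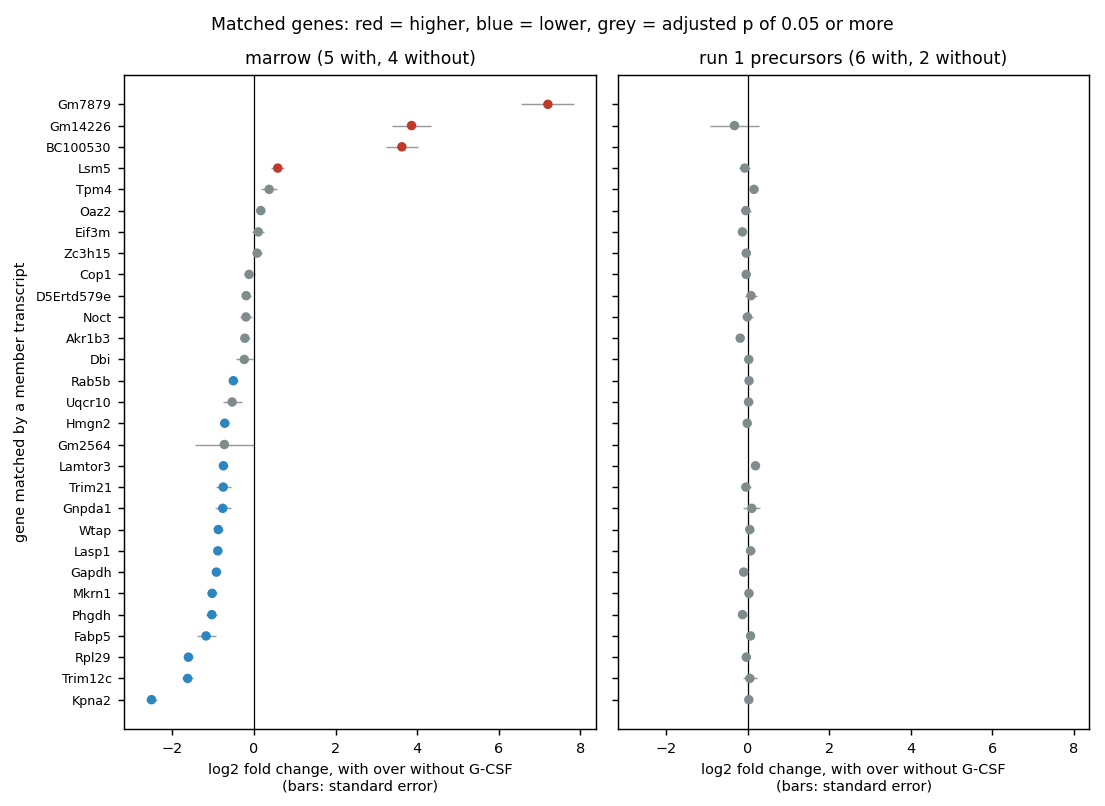
Log2 fold change, with over without G-CSF, of the 29 genes matched by members in marrow (left) and of those tested in run 1 precursors (right), with standard errors, from edgeR fits. In marrow 4 are higher (red) and 14 lower (blue), with Kpna2 lowest at -2.51; in precursors all 26 are uncalled (grey). The marrow split turns to 9 higher and 2 lower on the TPM scale. The members were chosen by their TPM in the same marrow libraries, so the marrow calls are not independent of that choice.

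Of 196 tested genes lying within 100 kb of a member, 36 were higher and 37 lower in marrow with G-CSF, where 6.39% of all genes tested were higher and 8.27% lower, and their median was -0.04. The same shares of all genes stand beside the lists that follow. On the TPM scale 84 were higher and 19 lower, and without combined 1 the called neighbours numbered 46 with edgeR. Relatives of the coding members were followed from lists. Of 14 tested class I genes other than H2-Q2, 5 were higher and 4 lower; H2-D1 averaged 1145 TPM with and 289 TPM without G-CSF (log2 fold change 1.17 ± 0.11), while H2-T23 averaged 14.6 and 50.2 TPM (-2.53 ± 0.13). Of 10 class II genes, 5 were lower and none higher; H2-Eb1, the E beta chain gene that partners H2-Ea, averaged 2.83 TPM with and 45.1 TPM without G-CSF (-4.71 ± 0.21), and H2-Aa 121 and 61.01 TPM (0.21 ± 0.12, not called). Of 11 genes of the Ifi200 family around Ifi202b, 1 was higher (Ifi214) and 7 were lower, with a median of -1.19. None of these lists had a called gene in run 1 precursors, where H2-Eb1 had a median of 11.6 TPM in the 6 libraries with G-CSF, against 14.1 and 18.7 TPM in the 2 without.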

How the data were processed

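RNA of whole marrow and of sorted precursors was sequenced. Per mouse Ensembl gene, the authors deposited TPM beside estimated counts. The tools were Salmon, whose version is not given, and DESeq2 1.16.1, with the genome build mm10, per the submitters' processing notes. The annotation release is not given in the sources used here. The TPM deposited by the authors are scaled within each library, so a large change in a few RNAs moves all others. Estimated counts, as the authors deposited them, differ in total between libraries and were rounded to whole numbers for tests.

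Of the marrow table's identifiers, 99.1% matched GENCODE vM21 (GRCm38, the assembly of mm10), which gave symbols, kinds, positions and transcripts. Parents were found with blastn 2.17.0, using the transcript sequences of the members against coding transcripts.

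Fits used edgeR 4.0.16 in R 4.3.3 (quasi-likelihood, robust) on all genes passing filterByExpr (minimum count 10, total 15), with TMM scaling and Benjamini-Hochberg adjusted p under 0.05. The 4 marrow groups were fitted together, and with G-CSF against without is the mean of 2 groups against the mean of the other 2. Run 1 precursors were fitted with and without G-CSF. Errors after ± on log2 values are standard errors, and other ± values are SD. Intervals called 95% reach 1.96 standard errors to each side. That is the width for a normal distribution and is too narrow with so few libraries. The fit was tested on simulated counts. A count of 0 in a marrow library allows 0.186 to 0.481 CPM (3 counts).

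Alternatives were other scaling, no filter, DESeq2 1.42.0, limma 3.58.1 on log2(TPM + 0.5), a replicate block and leaving out each library. The 17 final precursor libraries and run 2 alone were also fitted; these 2 without the libraries that carry marrow markers were added after seeing the data.

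The genes named with values were all coding members, the 10 on and 5 off genes with the highest median, members called in the tests, the 3 nearest misses on each side and the parents of the 5 highest members that have one; others named were chosen after their values were seen. The members, the rule and the gene lists were chosen with earlier results of these data known.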

Additional observations from a re-analysis of the deposited data

Results flagged for a closer look

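Among run 2 libraries labelled as precursors of combined-treated mice, replicate 3 stood far from the other 3 in the summed TPM of the on genes (809.8 TPM, against 18.71 to 57.3 TPM) and in the number of on genes at 1 TPM or more (40, against 2 to 6). Such a gap test flags about 1 in 20 groups by chance. This library carried neutrophil markers at 15350 TPM in sum, against at most 872.1 TPM in the other 3.

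In data outside the run 1 comparison, 3 run 2 libraries labelled precursor had more on-gene TPM than any library of that table labelled without G-CSF, where the highest was 139.5 TPM. These were G-CSF 2 with 1406 TPM, combined 3 with 809.8 TPM and G-CSF 1 with 446 TPM. All 3 carried marrow markers, with neutrophil sums of 28960, 15350 and 7542 TPM in that order, and the part of those markers in the result was not tested. G-CSF 2 held 17.88 TPM of the off genes, against 1110 TPM in combined 3 and 2167 TPM in G-CSF 1.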

How the results depend on the processing

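The on count was 83 genes with a high limit of 0.5 TPM and 52 to 74 with each library left out. The off count was 18 with a high limit of 0.5 TPM, 7 with a limit of 2 TPM, 7 with CPM in place of TPM (3 of them shared with the TPM rule; 27 of 39 on genes were shared) and 12 to 46 with each library left out. The other limits tried kept both counts within 1.5 times.

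No member was called in run 1 precursors, or within a side of the marrow rule, under any setting run. Over all genes, combined against G-CSF marrow gave 557 calls with no filter, 204 with DESeq2, 18 with limma on TPM, 0 with the replicate block and 0 to 18 with each library left out. ZA against untreated marrow gave 634, 139, 11, 0 and 0 to 23 in the same order. Marrow with against without G-CSF gave 3362 calls with no filter, 6545 with limma on TPM, and 1082 (without combined 1) to 1967 with each library left out (1382 without combined 3, 1409 without ZA 2), of which 46 to 65 were neighbours and 14 to 17 parents. Run 1 precursors gave 23 calls with DESeq2, run 2 alone 7, and the final or run 2 libraries without marrow markers 2 each. The parents called numbered 11 with limma on TPM, where Noct turned to 0.56; the cause was not tested, though the TPM scale moved the median of all genes to 0.62.

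Replicate numbers did not pair marrow samples (correlations of deviations -0.04 to 0.12), and the replicate block left 1572 genes called, 16 parents and 58 neighbours among them. Low counts limit the members: 19 of 50 on genes and 7 of 11 off genes held under 10 counts in their lowest library.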
